A study of Mus musculus with 6 samples.

Results

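The genes described here are 10 muscle chaperones and partners, taken as a fixed list of names from the 18089 genes of an RNA sequencing (RNA-seq) table of ischemic mouse muscle. They are the small heat shock proteins *Hspb1* (Entrez gene 15507), *Hspb2* (69253), *Hspb3* (56534), *Hspb6* (243912), *Hspb7* (29818), *Hspb8* (80888) and *Cryab* (12955), the co-chaperone *Bag3* (29810), and the stress-inducible Hsp70 pair *Hspa1a* (193740) and *Hspa1b* (15511). All 10 were in the table and all 10 passed the filter on low counts. RNA came from the gastrocnemius of male C57BL/6 mice aged 8 to 10 weeks, 7 days after hindlimb ischemia (HLI), in which the femoral artery is ligated. There were 3 wild-type (WT) muscles and 3 muscles of *Gpr174*-/Y mice (GPR174-KO in the labels), males that lack a working copy of the X-linked receptor gene *Gpr174*. Both groups had HLI, and uninjured muscle was not analysed here.

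Small heat shock proteins share an alpha-crystallin domain. They keep unfolding proteins soluble without using ATP, and in striated muscle they act on desmin, titin and filamin during contraction and repair, after which ATP-driven Hsp70 machines refold the clients. BAG3 binds both HSPB8 and Hsp70 and hands damaged filamin to autophagy, while heat shock factor 1 (HSF1) switches on *Hspa1a*, *Hspa1b*, *Hspb1* and *Bag3* under proteotoxic stress.

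Total estimated counts ranged from 18417111 to 19394504 a library. *Gpr174*, the deleted gene, had 8, 2 and 5 counts across WT replicates 1 to 3, against 1, 0 and 0 across the *Gpr174*-/Y replicates. Levels are CPM, counts scaled to a common library size, after TMM scaling, which corrects for a few abundant genes taking up much of a library. Scaling by total counts moved the median log2 fold change of all tested genes to 0.28, a shift of 0.27, so every change is relative to that choice. Replicate 2 lay between replicates 1 and 3 in 77.1% of 9972 genes with a mean of at least 10 CPM in WT and in 68.2% in *Gpr174*-/Y muscles, and for 9 and 10 of the 10 chaperone genes. The labels do not say which animal gave each library, so p-values measure only the spread between these libraries, which may be partly technical.

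Windows upstream of the annotated start are shown for 5 genes because HSF1 binds inverted GAA units. They run from 140 to 21 bases before the start, 5′ to 3′, from RefSeq on build GRCm38.p6, and capitals mark GAANNTTC, which reads the same on both strands. *Hspb1* is shown for its 2 matches, *Hspa1a* and *Hspa1b* for their likeness, and *Hspb6* and *Hspb7* for their fold changes. Of the *Hspb6* promoters, the one with a match is shown, and which of them its counted transcripts start from was not tested.
*Hspb1*, chr5:135887779-135887898, plus strand: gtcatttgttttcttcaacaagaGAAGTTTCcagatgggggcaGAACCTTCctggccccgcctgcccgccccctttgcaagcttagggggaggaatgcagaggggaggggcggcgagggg
*Hspa1a*, chr17:34972177-34972296, minus strand: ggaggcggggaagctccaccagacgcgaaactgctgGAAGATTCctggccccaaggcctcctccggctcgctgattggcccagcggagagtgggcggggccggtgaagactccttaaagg
*Hspa1b*, chr17:34959259-34959378, minus strand: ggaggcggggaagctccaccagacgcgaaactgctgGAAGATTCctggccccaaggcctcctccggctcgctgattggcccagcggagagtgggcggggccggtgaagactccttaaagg
*Hspb6* second promoter, chr7:30553161-30553280, plus strand: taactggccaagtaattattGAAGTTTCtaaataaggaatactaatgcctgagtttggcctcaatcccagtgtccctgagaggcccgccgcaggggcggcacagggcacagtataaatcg
*Hspb7*, chr4:141420639-141420758, plus strand: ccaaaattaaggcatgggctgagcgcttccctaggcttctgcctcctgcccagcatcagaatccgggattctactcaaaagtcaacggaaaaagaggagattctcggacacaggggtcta
In the 250 bases before the start, GAANNTTC was found in 5 of the 9 promoters listed for 8 of the genes. These were promoters of *Hspb1*, *Hspb3*, *Hspb6* (the second of its promoters), *Hspa1a* and *Hspa1b*. Of all 32851 listed promoters 6.69% held the motif, and 0.228% held it 2 or more times, as *Hspb1* did. Those of *Bag3*, *Hspb7* and *Hspb8* and the first of *Hspb6* held no match to these letters. *Cryab* and *Hspb2* had no entry. The *Hspa1a* and *Hspa1b* windows were the same at 120 of 120 bases.

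Levels were compared between genes in TPM, which are scaled for transcript length and library size. *Hspb6*, a small heat shock protein of striated and smooth muscle, was the highest, with 2680.3 ± 531.2 TPM in WT and 1101.3 ± 128.5 TPM in *Gpr174*-/Y muscles (SD, n = 3 each). In WT, *Cryab* (1267.3 ± 477.8 TPM), *Hspb1* (1091.4 ± 609.7 TPM), *Hspb7* (1021.4 ± 529.7 TPM) and *Hspb8* (892.6 ± 350.0 TPM) followed. Their ranges overlapped, but all 4 rose from WT replicate 1 to 3. Within each WT library *Cryab* was the highest of the 4, with 832, 1191 and 1779 TPM against 567, 848 and 1263 TPM for *Hspb8*. In *Gpr174*-/Y muscles the order below *Hspb6* was *Hspb1* (834.5 ± 113.3 TPM), *Hspb8* (779.3 ± 45.5 TPM), *Cryab* (697.9 ± 59.5 TPM) and *Hspb7* (424.6 ± 22.6 TPM). There *Hspb1* was above *Hspb8* in replicates 1 and 2 and below it in replicate 3, while *Hspb7* stood below the rest. The other genes were lower in both groups. In WT, *Bag3* had 177.1 ± 10.1 TPM, *Hspb2* 86.8 ± 2.8 and *Hspb3* 80.3 ± 3.8. The Hsp70 pair was lowest, with 17.3 ± 4.6 TPM for *Hspa1a* and 14.9 ± 1.6 TPM for *Hspa1b*, in ranges that overlapped.

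The comparison of *Gpr174*-/Y with WT muscle asks which of these genes differ after HLI when the receptor is missing. *Hspb6*, *Hspb7*, *Cryab*, *Bag3*, *Hspb3* and *Hspb2* were lower in *Gpr174*-/Y muscles, while *Hspb1*, *Hspb8*, *Hspa1a* and *Hspa1b* did not pass an adjusted p of 0.05 in edgeR's quasi-likelihood test. Thus 6 of 10 fell, where 27.6% of all 14395 tested genes were called lower and 27.0% higher, 54.6% in all. The list was chosen with earlier results of these data known, so such shares describe these genes and test nothing. None of the 10 was higher (0 in edgeR, 0 at an unadjusted p under 0.05 in edgeR, and 0 in DESeq2). The median log2 fold change of the 10 genes was -0.54, against 0.00 over all tested genes. WT and *Gpr174*-/Y libraries lay apart in 6 of 10 genes, a share near the 65.6% of all tested genes without overlap (32.5% without overlap and lower). With a log2 fold change below -1 as well there were 3 of 10, *Hspb6*, *Hspb7* and *Cryab*, against 4.84% of all tested genes. With total-count scaling 5 of 10 were called lower (14.0% of all tested genes), and with limma on log2(TPM + 1) 3 of 10 were (10.4%). With replicates 1 and 3 of each group alone, 0 of the 10 passed in edgeR, 6 had an unadjusted p under 0.05 (34.8% of all tested genes), and the smallest adjusted p of any gene in the table was 0.0542.

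**Figure D1:**
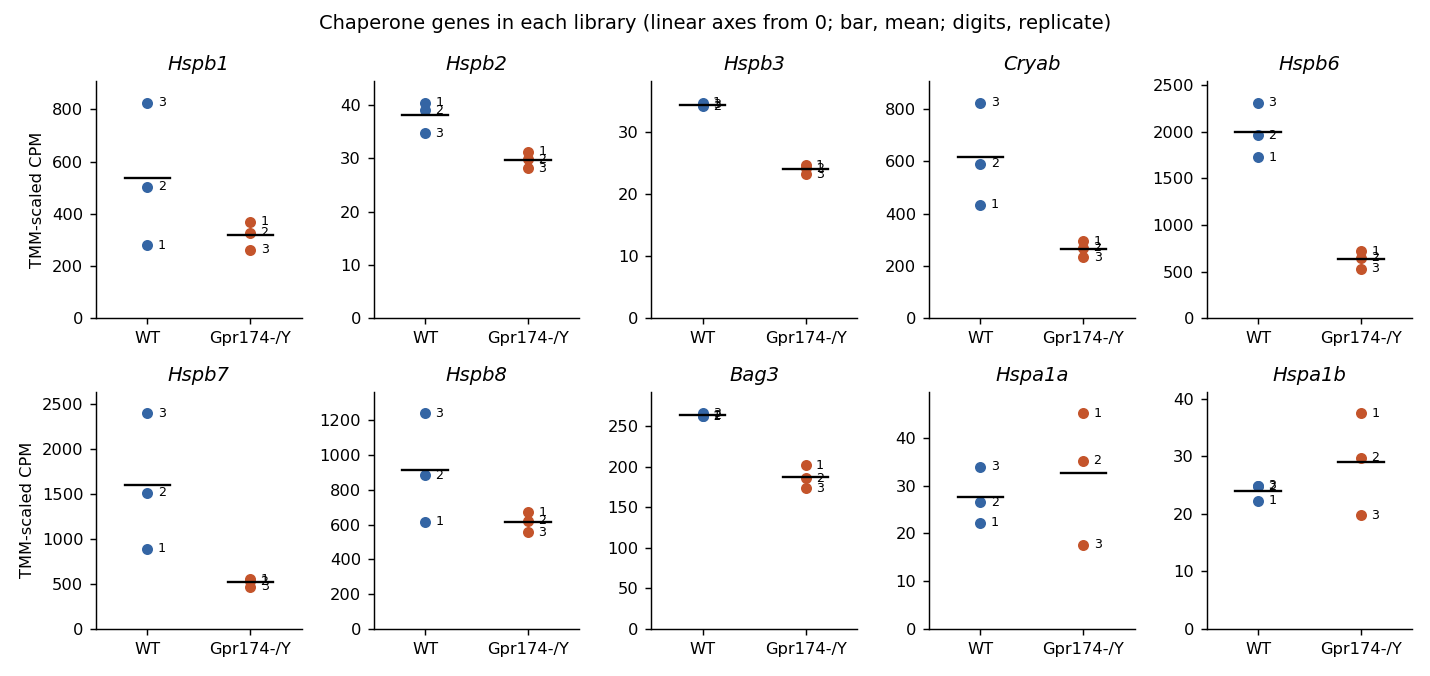
TMM-scaled CPM (vertical axes from 0, a scale for each gene) of the 10 chaperone genes in 3 WT and 3 *Gpr174*-/Y (KO) libraries, with replicate numbers beside the points and a bar at the mean. WT points spread widely for *Hspb1*, *Hspb7*, *Hspb8* and *Cryab* and lie close together for *Bag3* and *Hspb3*.

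**Figure D2:**
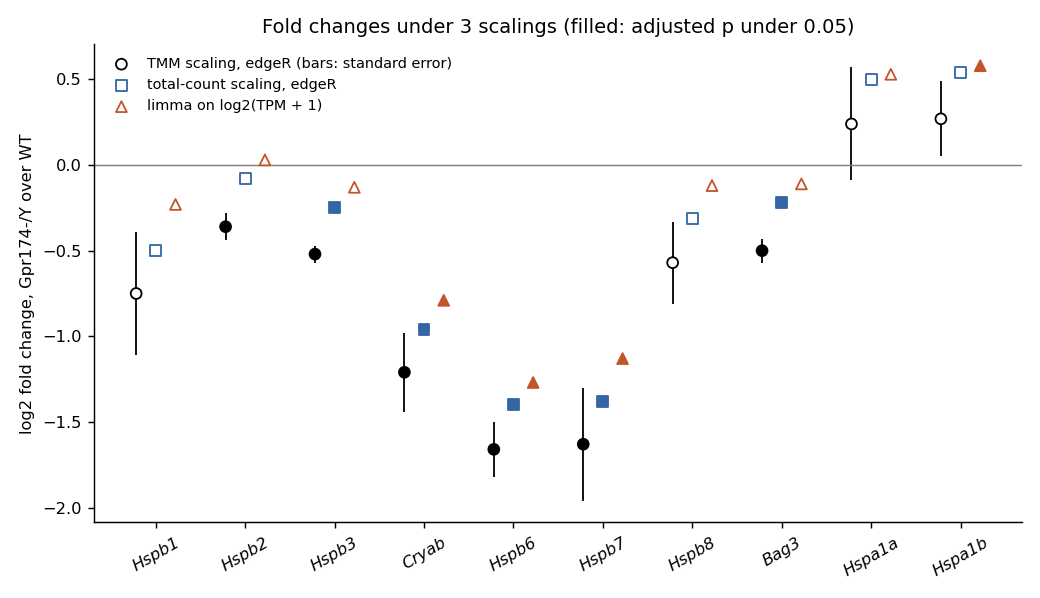
Log2 fold change of *Gpr174*-/Y over WT for each gene under TMM scaling with standard errors, total-count scaling, and limma on log2(TPM + 1). Filled symbols have an adjusted p under 0.05, and *Cryab*, *Hspb6* and *Hspb7* are filled under all 3.

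*Hspb6*, *Hspb7* and *Cryab* had the largest decreases. *Hspb6* measured 1724, 1963 and 2310.4 CPM in WT replicates 1 to 3, against 717, 648 and 531 CPM in *Gpr174*-/Y replicates 1 to 3. Every WT library was above every *Gpr174*-/Y library, and the level was 3.16-fold lower in *Gpr174*-/Y muscles (log2 fold change -1.66, standard error 0.16, adjusted p = 0.000797, edgeR). *Hspb7*, a small heat shock protein of heart and skeletal muscle that acts on filamin C, measured 893, 1509.7 and 2395 CPM in WT and 554, 527 and 468 CPM in *Gpr174*-/Y muscles. The groups did not overlap, although WT replicate 3 held 2.68 times the level of WT replicate 1, and the level was 3.1-fold lower (log2 fold change -1.63, standard error 0.33, adjusted p = 0.00634, edgeR). *Cryab*, which encodes alpha-B-crystallin, a chaperone of desmin, measured 435, 591 and 825 CPM in WT and 294, 270.1 and 234 CPM in *Gpr174*-/Y muscles. It was 2.32-fold lower with no overlap between groups (log2 fold change -1.21, standard error 0.23, adjusted p = 0.00484, edgeR). These 3 calls held with total-count scaling and with limma on TPM. In bulk tissue, fewer cells of a type and less RNA in each cell cannot be told apart.

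*Bag3*, *Hspb3* and *Hspb2* fell by less. *Bag3* measured 262, 263 and 266 CPM in WT replicates 1 to 3, against 202, 185 and 173 CPM in *Gpr174*-/Y replicates 1 to 3 (log2 fold change -0.50, standard error 0.07, adjusted p = 0.00186, edgeR). The 3 WT libraries were nearly equal, and each was above the 3 *Gpr174*-/Y libraries. *Hspb3*, which forms a complex with HSPB2 in muscle, measured 34.7, 34.1 and 34.4 CPM in WT and 24.6, 24.1 and 23.2 CPM in *Gpr174*-/Y muscles, in narrow groups that did not overlap (log2 fold change -0.52, standard error 0.05, adjusted p = 0.000797, edgeR). *Hspb2*, the partner of HSPB3 and a binder of the kinase DMPK, measured 40.4, 39.0 and 34.7 CPM in WT and 31.3, 29.8 and 28.1 CPM in *Gpr174*-/Y muscles. The groups came close without overlap (log2 fold change -0.36, standard error 0.08, adjusted p = 0.00741, edgeR). With total counts, *Bag3* and *Hspb3* were still called and *Hspb2* was not. The log2 fold changes there were -0.22 for *Bag3* (adjusted p = 0.0265, edgeR) and -0.25 for *Hspb3* (adjusted p = 0.00678, edgeR), and -0.08 for *Hspb2* (adjusted p = 0.243, edgeR). With limma on log2(TPM + 1), which changes the unit and the test as well, none of these 3 passed, with -0.11 for *Bag3*, -0.13 for *Hspb3*, and a change of sign to 0.03 for *Hspb2*.

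*Hspb1* and *Hspb8* varied widely among WT muscles. *Hspb1*, the actin-binding Hsp27 found in many tissues, measured 279, 504 and 826 CPM in WT replicates 1 to 3, against 369, 326 and 262 CPM in *Gpr174*-/Y replicates 1 to 3. WT replicate 1 lay among the *Gpr174*-/Y libraries and the other WT libraries lay above them, so the groups overlapped (log2 fold change -0.75, standard error 0.36, adjusted p = 0.121, edgeR). *Hspb8*, the small heat shock protein that pairs with BAG3, measured 615, 882 and 1239 CPM in WT and 669, 621 and 557 CPM in *Gpr174*-/Y muscles. WT replicate 1 again lay among the *Gpr174*-/Y libraries (log2 fold change -0.57, standard error 0.24, adjusted p = 0.0827, edgeR). Without WT replicate 1 both passed, with -1.05 for *Hspb1* (adjusted p = 0.00804, edgeR) and -0.78 for *Hspb8* (adjusted p = 0.0059, edgeR). Without WT replicate 3 the values were -0.29 and -0.27, neither past the threshold. DESeq2 on all libraries called *Hspb8* lower (adjusted p = 0.0313) and did not call *Hspb1*.

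*Hspa1a* and *Hspa1b* encode nearly the same inducible Hsp70. Their longest reading frames, of 1926 and 1929 bases, were 99.6% identical over the aligned bases, 8 of which differed. Of the 50-base stretches of the *Hspa1a* transcript, 58.8% also occur in that of *Hspa1b*, so the split of reads between the copies is uncertain. *Hspa1a* measured 22.2, 26.5 and 33.9 CPM in WT replicates 1 to 3, against 45.1, 35.1 and 17.6 CPM in *Gpr174*-/Y replicates 1 to 3. *Hspa1b* measured 22.3, 24.8 and 24.9 CPM in WT and 37.5, 29.7 and 19.7 CPM in *Gpr174*-/Y muscles. In both genes *Gpr174*-/Y replicate 1 was the highest of the 6 libraries and *Gpr174*-/Y replicate 3 the lowest, so the groups overlapped. Neither passed, with a log2 fold change of 0.24 for *Hspa1a* (standard error 0.33, adjusted p = 0.564, edgeR) and of 0.27 for *Hspa1b* (standard error 0.22, adjusted p = 0.321, edgeR). Summed to 1 feature, the pair measured 44.5, 51.4 and 58.8 CPM in WT and 82.6, 64.8 and 37.3 CPM in *Gpr174*-/Y muscles, again with overlap (log2 fold change 0.26, standard error 0.27, adjusted p = 0.453, edgeR). Single libraries decided these values. Without *Gpr174*-/Y replicate 3, *Hspa1b* passed as higher with 0.49 (adjusted p = 0.0237, edgeR), and without *Gpr174*-/Y replicate 1 the value of *Hspa1a* changed sign to -0.07. With limma on log2(TPM + 1), *Hspa1b* was called higher with 0.58 (adjusted p = 0.032).

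The spread within groups was uneven across these genes. Among WT muscles the highest library held 2.96 times the lowest for *Hspb1*, 2.68 times for *Hspb7*, 2.02 times for *Hspb8* and 1.9 times for *Cryab*, where the median of genes with a mean of at least 10 CPM was 1.14 times. An SD of log2 CPM at least as large as that of *Hspb1* in WT was found in 0.692% of those genes, and as large as that of *Hspb7* in 0.892%. *Bag3* was at the other end in WT, with 1.01 times between its highest and lowest library. In *Gpr174*-/Y muscles *Hspb7* varied by 1.18 times and *Hspb8* by 1.2 times, while *Hspa1a* varied by 2.57 times and *Hspa1b* by 1.9 times, with an SD at least as large in 0.0903% and 0.211% of genes. The widest ranges were thus those of small heat shock proteins in WT and of the Hsp70 pair in *Gpr174*-/Y muscles. WT replicate 3 was the highest WT library for 8 of the 10 genes, and *Gpr174*-/Y replicate 3 was the lowest of its group for 10 of 10.

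Markers of muscle fibres and of other cells also differed between the groups, where 27.6% of all tested genes were called lower and 27.0% higher. The 10 chaperone genes together took 0.378%, 0.528% and 0.761% of all counts across WT replicates 1 to 3, against 0.318%, 0.296% and 0.259% across *Gpr174*-/Y replicates 1 to 3. The 18 mature fibre markers, contractile and metabolic genes led by *Acta1*, took 19.851%, 18.019% and 15.182% in WT, against 8.572%, 8.308% and 7.897% in *Gpr174*-/Y muscles, and 18 of 18 were called lower. Their lowest WT share was in replicate 3, the library with the highest chaperone share. The 12 regenerating fibre markers, led by the perinatal myosin *Myh8*, took 0.247%, 0.351% and 0.514% in WT, against 0.686%, 0.664% and 0.626% in *Gpr174*-/Y muscles, with 9 called higher. *Myh8* itself was not called, and its groups overlapped (log2 fold change 0.20, standard error 0.19, adjusted p = 0.412, edgeR). The others not called were *Myh3* (0.85, adjusted p = 0.124, edgeR) and *Myf6* (-0.19, adjusted p = 0.125, edgeR). The 8 macrophage markers, led by *Lyz2*, took 0.095%, 0.117% and 0.151% in WT, against 0.279%, 0.285% and 0.292% in *Gpr174*-/Y muscles, with 7 called higher. WT replicate 3 was thus the WT library nearest to the *Gpr174*-/Y group in the summed shares of these 3 marker lists. It was the farthest from that group in *Hspb6*, *Hspb7* and *Cryab*. Single mature fibre markers did not all follow their sum. Across WT replicates 1 to 3, *Myh4* fell (31348, 22677 and 10481 CPM) while *Myh1* rose (8144, 9764 and 11973 CPM). *Myh1* had 3580, 3035 and 2196 CPM in *Gpr174*-/Y muscles, so WT replicate 3 was the farthest from them for this marker too. Of 10 endothelial markers 9 were lower and 1 higher, and of 8 smooth muscle markers 2 were lower and 3 higher. Of 6 fibroblast markers 3 were lower and 2 higher, and of 8 neutrophil markers 2 were tested, 1 lower and 1 higher. These last lists shifted with the fit, to 2 lower and 5 higher with total-count scaling and 1 lower and 4 higher with limma on TPM for smooth muscle, 2 lower and 3 higher with total-count scaling and 2 lower and 3 higher with limma on TPM for fibroblasts, and 0 lower and 1 higher with total-count scaling and 0 lower and 1 higher with limma on TPM for neutrophils. The part of these markers in the chaperone differences was not tested.

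**Figure D3:**
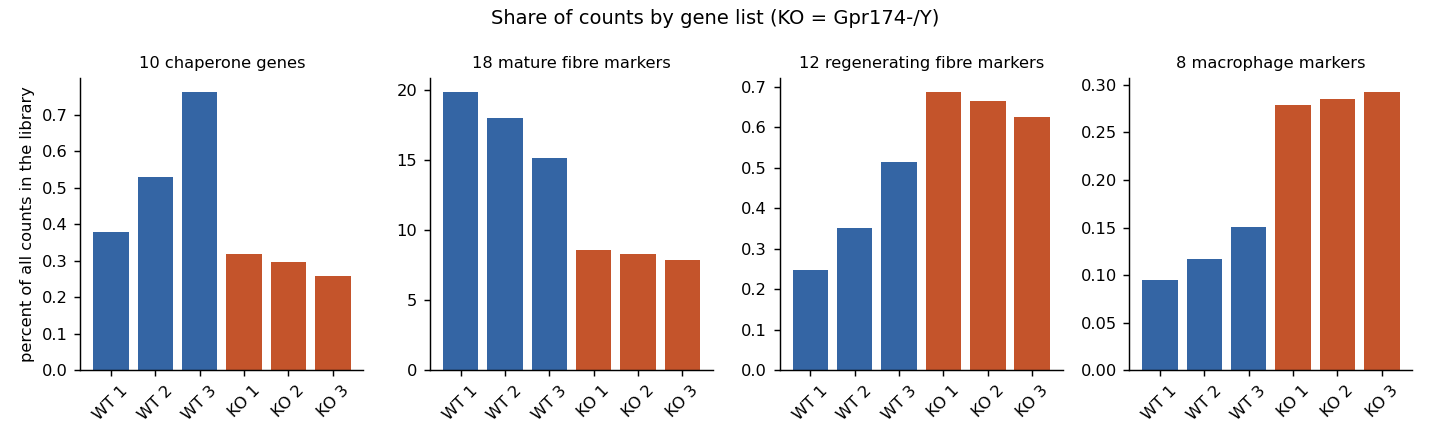
Percent of all counts in each library (vertical axes from 0, a scale for each panel) held by the 10 chaperone genes and by markers of mature fibres, regenerating fibres and macrophages, in WT and *Gpr174*-/Y (KO) libraries. The chaperone share is highest in WT replicate 3, where the mature fibre share is the lowest of the WT libraries.

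Set against the mature fibre markers of the same library, the chaperone genes were not uniformly lower in *Gpr174*-/Y muscles. For every 1000 counts of the 18 markers, *Hspb6* had 7.58, 9.85 and 14.49 counts in WT, against 9.03, 8.55 and 7.54 counts in *Gpr174*-/Y muscles, a mean log2 difference of -0.30. *Hspb7* had 3.92, 7.57 and 15.02 counts in WT, against 6.97, 6.96 and 6.64 in *Gpr174*-/Y muscles, a difference of -0.16. *Cryab* had 1.91, 2.96 and 5.17 counts in WT, against 3.70, 3.57 and 3.32 in *Gpr174*-/Y muscles, a difference of 0.19. The groups overlapped in these 3 genes, as they did for *Hspb1*. *Bag3* had 1.15, 1.32 and 1.67 counts in WT, against 2.54, 2.45 and 2.46 in *Gpr174*-/Y muscles on this scale, a difference of 0.87. For *Bag3*, and for *Hspb2*, *Hspb3*, *Hspb8*, *Hspa1a* and *Hspa1b*, every *Gpr174*-/Y library was above every WT library. The markers themselves summed to 227486.4, 199300.5 and 159485.4 CPM in WT, against 79438.9, 75722.5 and 70427.7 CPM in *Gpr174*-/Y muscles. A gene of equal CPM in all libraries would therefore also be higher and lie apart on this scale. The share of all genes that lie apart on it was not computed. No test was run on these values. Without WT replicate 3, a choice made after seeing the data, the difference was -0.05 for *Hspb6*, 0.33 for *Hspb7*, 0.57 for *Cryab* and 1.01 for *Bag3*, so the sign for *Hspb7* rested on that library. Without WT replicate 1 the value for *Cryab* changed sign to -0.15.

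*Cryab* was counted on 6 RefSeq transcripts, and most of its spread was assigned to NM_001289785.1. That transcript had 3558.8, 6527.6 and 12143.2 estimated counts in WT, against 3289.2, 2614.4 and 1836.6 in *Gpr174*-/Y muscles. It held 51.0%, 65.8% and 82.7% of the counts of the gene in WT, against 53.5%, 45.6% and 36.5% in *Gpr174*-/Y muscles, so its share was highest in WT replicate 3 and lowest in *Gpr174*-/Y replicate 3. The other transcripts together had 3425.2, 3399.2 and 2543.3 counts in WT, against 2864.4, 3120.8 and 3193.5 in *Gpr174*-/Y muscles, a much narrower range. Reads that several transcripts share are divided by an estimate, and the split was not tested.

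**Figure D4:**
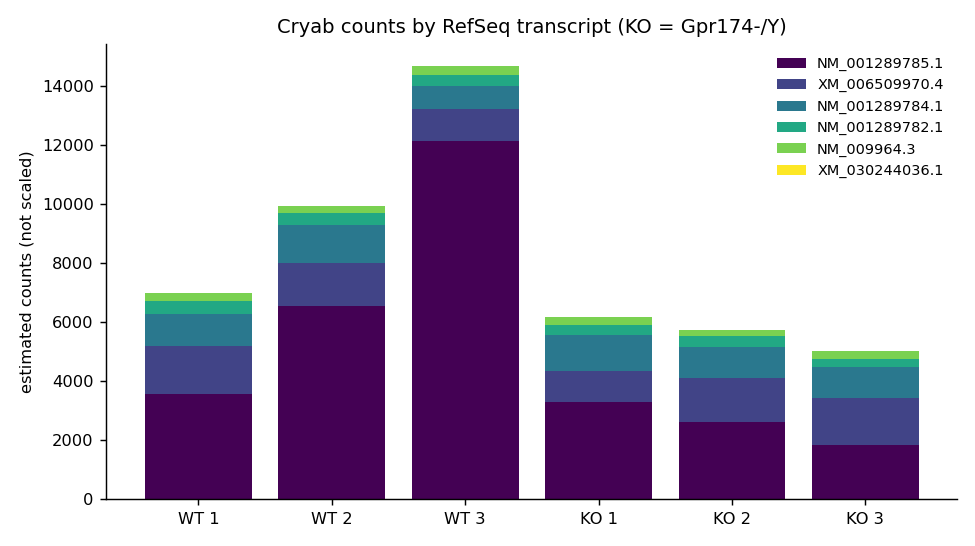
Estimated counts of *Cryab* (vertical axis from 0, not scaled for library size) in each library, stacked by RefSeq transcript (KO, *Gpr174*-/Y). NM_001289785.1 holds between 36.5% and 82.7% of the counts and carries most of the difference between libraries.

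Ratios within a library do not depend on its scaling, and 3 were compared. *Cryab* and *Hspb2* are neighbours on chromosome 9 that are read in opposite directions. In the GENCODE M21 annotation they share 252 exon bases on opposite strands, of 834 exon bases in *Hspb2*, and whether the counting used strand is not given in the sources used here. *Hspb6* shares 122 exon bases with *Proser3* and *Hspa1a* 564 with *Gm20481* in the same way. On the same strand, *Hspb6* shares 77 of its 2299 exon bases with *Gm38670*. Reads from such stretches may belong to either gene. The ratio of *Cryab* to *Hspb2* counts was 10.7, 15.1 and 23.8 in WT, against 9.41, 9.06 and 8.33 in *Gpr174*-/Y muscles. Every WT library was above every *Gpr174*-/Y library, with a mean log2 difference of -0.82 (2-sided exact permutation test, p = 0.1, the smallest that 3 against 3 allows, adjusted p = 0.3 over 3 ratios). The ratio of *Bag3* to *Hspb8* was 0.427, 0.298 and 0.215 in WT, against 0.302, 0.299 and 0.311 in *Gpr174*-/Y muscles, wide among WT and nearly constant among *Gpr174*-/Y libraries. Its mean log2 difference was 0.01 (exact permutation test, p = 0.8, adjusted p = 0.8). The ratio of *Hspa1b* to *Hspa1a* was 1.003, 0.935 and 0.735 in WT, against 0.831, 0.846 and 1.12 in *Gpr174*-/Y muscles, with a difference of 0.06 (exact permutation test, p = 0.8, adjusted p = 0.8). Without WT replicate 3 the differences were -0.52, -0.23 and -0.07 in the same order.

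Of the wider chaperone network, 24 genes were lower and 10 higher in *Gpr174*-/Y muscles of 62 tested (65 listed). Over all tested genes 27.6% were lower and 27.0% higher, and these shares apply to each list below. The median log2 fold change of the network was -0.12. The split depended on the scaling. With total counts it turned to 7 lower and 29 higher (14.0% and 50.7% of all tested genes), and with limma on log2(TPM + 1) to 7 and 40, where 10.4% of all tested genes were lower and 62.7% higher. Leaving out WT replicate 2 left 15 lower, and leaving out *Gpr174*-/Y replicate 1 or 2 left 6 or 4 higher. Of the 4 genes of the heat shock factor group, *Hsf1* was not called (log2 fold change -0.09, standard error 0.05, adjusted p = 0.178, edgeR), nor was *Hsf4*, while *Hsf2* (-0.17) and *Hsbp1* (-0.23) were lower, and both had a positive value in the other fits. The counts were 0 lower and 1 higher with total-count scaling and 0 lower and 3 higher with limma on TPM, and *Hsf1* itself was called higher in both.

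The Hsp40 proteins load clients onto Hsp70. Of 10 tested, 8 were lower (27.6% of all tested genes) and 0 higher (edgeR, also 0 at an unadjusted p under 0.05 and 0 in DESeq2). The counts were 3 lower and 2 higher with total-count scaling. They were 3 lower and 4 higher with limma on TPM, where *Dnaja2*, *Dnajb6* and *Dnajc7* had positive values. *Dnaja4* led, with 108, 142 and 182 CPM in WT and 64.7, 56.7 and 43.7 CPM in *Gpr174*-/Y muscles (log2 fold change -1.39, standard error 0.22, adjusted p = 0.00255, edgeR). Like *Cryab*, it was highest in WT replicate 3 and lowest in *Gpr174*-/Y replicate 3, with no overlap between groups. *Dnajb5* was also lower (-0.68), while the heat-inducible *Dnajb1* was not called (0.14, adjusted p = 0.106, edgeR).

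Other Hsp70 and Hsp110 genes were mixed, with 4 lower and 2 higher of 10 (2 lower and 3 higher with total-count scaling and 2 lower and 6 higher with limma on TPM). *Hspa12b*, known from endothelium, had a log2 fold change of -0.94 and its relative *Hspa12a* one of -0.93, and *Hspa2* (-0.41) and the mitochondrial *Hspa9* (-0.40) were lower too. *Hspa13* (0.45) and *Hspa4l* (0.37) were higher. The constitutive *Hspa8* was not called (-0.06, adjusted p = 0.608, edgeR). Of 15 genes for Hsp90 and its co-chaperones 4 were lower (*Smyd1*, *Chordc1*, *Sugt1* and *Unc45b*) and 4 higher (*Hsp90aa1*, *Unc45a*, *Ptges3* and *St13*), against 1 lower and 7 higher with total-count scaling and 1 lower and 10 higher with limma on TPM, where *Chordc1*, *Sugt1* and *Unc45b* had positive values with limma on TPM. *Smyd1*, a muscle methyltransferase that works with Hsp90 on myosin, had a log2 fold change of -1.0. *Hsp90aa1*, the inducible Hsp90, measured 108, 114 and 127 CPM in WT and 226, 210.0 and 194 CPM in *Gpr174*-/Y muscles. It was the largest increase among the called genes of these lists, with no overlap (log2 fold change 0.85, standard error 0.09, adjusted p = 0.000901, edgeR). *Unc45a*, a myosin chaperone found outside muscle, was higher by 0.33 (adjusted p = 0.0362, edgeR), a call lost without WT replicate 1 (adjusted p = 0.0537), WT replicate 2 (0.0929), *Gpr174*-/Y replicate 1 (0.112) or *Gpr174*-/Y replicate 2 (0.107), and with the replicate number as a block (0.09). Of 10 chaperonin genes 2 were higher and 0 lower (edgeR, also 0 at an unadjusted p under 0.05 and 0 in DESeq2). The 2 were the mitochondrial *Hspe1* (0.31) and the cytosolic *Cct2* (0.24). Total-count scaling and limma on TPM each called 10 of 10 higher, where 50.7% and 62.7% of all tested genes were called higher. The call of *Hspe1* was lost without WT replicate 2 (adjusted p = 0.0539, edgeR) or *Gpr174*-/Y replicate 1 (0.0507), and that of *Cct2* without *Gpr174*-/Y replicate 2 (0.0542).

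**Figure D5:**
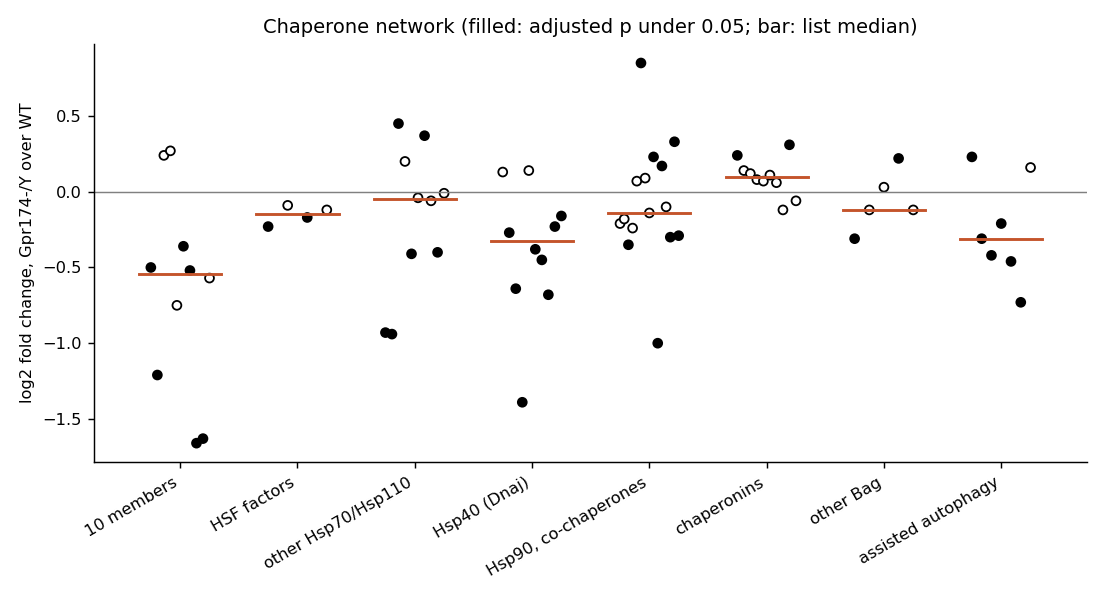
Log2 fold change of *Gpr174*-/Y over WT (TMM scaling) of each tested gene by list, with a bar at the median of the list. Filled points have an adjusted p under 0.05, and 8 of the 10 Hsp40 genes are filled below 0, a count that is 3 with total-count scaling.

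Genes that work with BAG3 in chaperone-assisted autophagy were mostly lower, 5 of 7 (27.6% of all tested genes), and *Hdac6* was higher (0.23). But the counts were 1 lower and 2 higher with total-count scaling and 1 lower and 3 higher with limma on TPM. *Synpo2*, the BAG3 partner of the Z-disc, measured 568, 516 and 443 CPM in WT and 336, 313 and 273 CPM in *Gpr174*-/Y muscles (log2 fold change -0.73, standard error 0.12, adjusted p = 0.00298, edgeR). Its groups did not overlap, and its highest WT library was replicate 1, unlike that of *Hspb8*. The ubiquitin ligase *Stub1* (-0.21), the autophagy receptor *Sqstm1* (-0.42), *Synpo* (-0.46) and *Map1lc3b* (-0.31) were the others called lower, though the value of *Stub1* was positive with total-count scaling (0.06) and with limma on TPM, as was that of *Map1lc3b* with limma on TPM. Among the 5 other Bag genes *Bag1* was lower (-0.31) and *Bag5* higher (0.22), against 0 lower and 3 higher with total-count scaling and 0 lower and 3 higher with limma on TPM. Of the 4 further small heat shock proteins and relatives, *Cryaa*, *Hspb9* and *Odf1* did not pass the filter on low counts, and *Hspb11* was not called with TMM (0.01, adjusted p = 0.962, edgeR) but was called higher with total-count scaling and with limma on TPM.

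Of 8 sarcomere and filament genes, which include those of desmin, titin and filamin, 6 were lower with TMM, with total-count scaling and with limma on TPM. Whether the others on this list are clients of the small heat shock proteins was not tested. Of all tested genes 27.6%, 14.0% and 10.4% were lower in the same order, and of the 18 mature fibre markers 18, 17 and 17 were. *Des*, the desmin gene, had a log2 fold change of -0.72 and *Ttn*, the titin gene, one of -0.96. The Z-disc genes *Ldb3* (-1.16), *Myot* (-1.34) and *Actn2* (-1.0) and the thin filament gene *Tpm1* (-1.49) were lower too. *Vim*, the vimentin gene of regenerating fibres and non-muscle cells, was higher (log2 fold change 0.71, standard error 0.12, adjusted p = 0.00395, edgeR). *Flnc*, which encodes the filamin that BAG3 hands to autophagy, measured 786, 1046 and 1426 CPM in WT and 1055, 951 and 823 CPM in *Gpr174*-/Y muscles. Its groups overlapped and WT replicate 3 was again the highest library (log2 fold change -0.20, standard error 0.22, adjusted p = 0.455, edgeR), and its sign changed with total-count scaling (0.06).

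Genes of a like pattern were found for the 3 chaperone genes of the highest mean TPM, by the root mean square difference of centred log2 CPM over the 6 libraries, among 9971 genes with a mean of at least 10 CPM. Nearest to *Hspb6* were *Xirp2* (0.075), *Myh1* (0.105) and *Slc47a1* (0.159), where the median gene lay at 0.853. *Xirp2* is a gene of striated muscle and *Myh1* a myosin of fast fibres. *Myh1* is also among the 18 mature fibre markers, so it is part of the sum against which *Hspb6* was set above. Nearest to *Cryab* were *Fhl1* (0.072), *Rcan1* (0.072) and *Myoz2* (0.092), against a median of 0.658. *Fhl1*, a LIM protein of muscle, measured 1604, 2343 and 3414 CPM in WT and 1261, 1116 and 904 CPM in *Gpr174*-/Y muscles, with the same order of libraries as *Cryab*. Nearest to *Hspb1* were *Lmcd1* (0.116), *Rab15* (0.152) and *Cpne2* (0.159), against a median of 0.594.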

How the data were processed

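RNA-seq of 3 WT and 3 *Gpr174*-/Y muscles was used. The deposited table lists 58843 RefSeq transcripts, for which the authors gave estimated counts (expected counts), FPKM and TPM for each library. FPKM and the deposited group means were not used here. The submitters' processing notes name HISAT2 2.0.4, Bowtie2 2.2.5, RSEM 1.2.12 and build GRCm39 without their roles. The labels name an Illumina kit and the methods a BGISEQ platform, and strand use is not given in the sources used here.

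Counts were summed to 18089 Entrez genes (99.7% with a symbol), rounded, filtered (filterByExpr, 14395 genes kept), scaled by TMM and tested with edgeR 4.0.16 (robust quasi-likelihood, no covariate, Benjamini-Hochberg over all tested genes, threshold 0.05) in R 4.3.3. The study used DEGseq. The alternatives were other scalings and filters, DESeq2 1.42.0, limma 3.58.1 on deposited TPM, a replicate block and fewer libraries. At this depth 3 counts, taken as the floor, are 0.155 to 0.163 CPM. On simulated counts with 2-fold changes in 200 genes for the *Gpr174*-/Y against WT comparison (14374 genes tested), edgeR recovered 95.5% with 7 false calls. The simulation gave every gene the same spread between libraries (dispersion 0.00967) and as many increases as decreases. It does not cover genes as variable as *Hspb1* or *Hspb7* in WT, or data in which 54.6% of genes are called.

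The chaperone genes and lists were chosen with earlier results of these data known. Named were all 10 chaperone genes, *Gpr174*, the 6 largest called increases and the 6 largest called decreases of the network lists whose groups did not overlap (mean of at least 1 CPM), the sarcomere and filament genes, the 3 nearest genes in pattern for each of the 3 highest chaperone genes, and the highest gene of a marker list. *Hsf1*, *Hsf2*, *Hsf4*, *Hsbp1*, *Dnaja2*, *Dnajb1*, *Dnajb6*, *Dnajc7*, *Hspa2*, *Hspa8*, *Hspa9*, *Chordc1*, *Sugt1*, *Unc45b*, *Ptges3*, *St13*, *Stub1*, *Sqstm1*, *Synpo*, *Map1lc3b*, *Hdac6*, *Bag1*, *Bag5*, *Cryaa*, *Hspb9*, *Odf1*, *Hspb11*, *Myh3*, *Myh4* and *Myf6* were named after their values were seen. RefSeq promoters (GRCm38.p6) matched 8 of the 10 genes.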

Additional observations from a re-analysis of the deposited data

How the results depend on the processing

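Of 451 values of 30 named genes under the alternatives, 400 had the direction and the call of the reported value, 38 lost the call, 6 gained one and 7 changed sign. Leaving out 1 library gave 6 to 8 of the 10 chaperone genes lower and 0 to 1 higher, and 15 to 28 network genes lower and 4 to 12 higher. With replicates 1 and 3 alone, 0 chaperone genes were lower and 0 network genes were lower or higher in edgeR (6 chaperone genes at an unadjusted p under 0.05), and 0 genes of the table were called. Total-count scaling gave 7 network genes lower and 29 higher. With limma on log2(TPM + 1), and likewise with a pseudocount of 0.1, 3 chaperone genes were lower and 1 higher, and 7 network genes were lower and 40 higher. A log2 fold change below -1 as well left 3 chaperone genes lower. *Hspb2* changed sign to 0.03 with both TPM fits, *Flnc* to 0.22 with both, to 0.06 with total counts and to 0.05 without WT replicate 3, and *Hspa1a* to -0.07 without *Gpr174*-/Y replicate 1. Over the fits that left out 1 library, *Flnc* ran from -0.38 to 0.05 and *Hspa1a* from -0.07 to 0.54. Leaving out 1 library, the log2 difference of the ratio of *Bag3* to *Hspb8* ran from -0.23 to 0.27, of *Cryab* to *Hspb2* from -1.09 to -0.52 and of *Hspa1b* to *Hspa1a* from -0.08 to 0.16. For every 1000 fibre marker counts, *Hspb7* ran from -0.64 to 0.33 and *Cryab* from -0.15 to 0.57 in the same way, an alternative chosen after seeing the data. The cause of these changes was not tested. Replicate numbers are shared by the groups, but the deviations of same-numbered libraries from their group means correlated by only 0.009, 0.008 and -0.023 over 13636 genes, so the numbers were not taken as a pairing. A fit with the replicate block called 6 chaperone genes lower and 0 higher in edgeR, and 6809 genes in all, against 7863 without it. With the block 23 network genes were lower and 8 higher, against 24 and 10 without it. Of the 30 named genes, which hold only part of the network, *Unc45a* alone lost its call with the block (0.33, adjusted p = 0.09, edgeR). With 3 libraries a group the ratios could not reach a p under 0.1.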
